A study of Homo sapiens with 6 samples.

Results

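The miR-106a-363 cluster on chromosome X is a paralog of the miR-17-92 cluster on chromosome 13. The arms described here are those that the X cluster alone encodes (hsa-miR-106a-5p, hsa-miR-18b-5p, hsa-miR-20b-5p, hsa-miR-19b-2-5p and hsa-miR-363-3p), the arms hsa-miR-19b-3p and hsa-miR-92a-3p that both clusters encode, and hsa-miR-92b-3p, which has the same seed as miR-92a-3p. The prefix hsa, for human, is left out from here on. They were chosen by name, and 7 of the 8 names were found among the 1000 mature miRNAs of the count table. miR-363-3p was not analysed here. The counts come from HEK 293T cells, an immortalized human embryonic kidney line, as 3 libraries of cells with both TUT4 (TENT3A) and TUT7 (TENT3B) knocked out (ΔTUT4/7) and 3 of the wild type. Neither strain received a treatment. The ΔTUT4/7 cells are a single strain made in another laboratory, so any other difference between the strains is part of each comparison. The question the comparison addresses is how far the loss of both uridylyltransferases altered the abundance of these miRNAs.

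TUT4 and TUT7 add uridines to the 3′ ends of RNAs, among them precursor miRNAs, and long uridine tails mark the RNA for degradation. The miR-17-92 cluster and its paralogs miR-106a-363 and miR-106b-25 are polycistrons, in which a single primary transcript is cut into several hairpins, and each hairpin can give a 5p and a 3p mature arm. The miR-17-92 miRNAs are widely known for promoting proliferation and survival, and their targets include the cell cycle inhibitor CDKN1A and the proapoptotic protein BIM. A miRNA finds its targets mainly through its seed, bases 2 to 8 of the mature sequence. Some precursors, called group II, are instead extended by a single uridine before Dicer cuts them, and no hairpin that encodes these arms is on the group II list the study used.

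The mature sequences below, from RefSeq (build GRCh38.p14) and written 5′ to 3′, are shown because the X cluster arms differ so little from their miR-17-92 counterparts that the differing bases decide which reads belong to which locus. Capitals mark the seed. The first 4 share the seed AAAGUGC, the next 2 share AAGGUGC, the next 2 GUGCAAA and the next 4 AUUGCAC, while the last 2 are 5p arms of the miR-19b hairpins.
miR-106a-5p: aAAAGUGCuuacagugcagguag
miR-17-5p: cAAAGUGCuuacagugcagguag
miR-20b-5p: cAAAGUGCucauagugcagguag
miR-20a-5p: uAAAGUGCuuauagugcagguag
miR-18b-5p: uAAGGUGCaucuagugcaguuag
miR-18a-5p: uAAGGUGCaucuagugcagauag
miR-19b-3p: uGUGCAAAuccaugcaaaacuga
miR-19a-3p: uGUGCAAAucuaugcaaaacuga
miR-92a-3p: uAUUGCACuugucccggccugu
miR-92b-3p: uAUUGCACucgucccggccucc
miR-25-3p: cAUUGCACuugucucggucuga
miR-363-3p: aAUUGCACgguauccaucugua
miR-19b-2-5p: aGUUUUGCagguuugcauuuca
miR-19b-1-5p: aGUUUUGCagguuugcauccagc

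The authors trimmed the reads to 18 nt, so only the first 18 bases of each arm were read. Counting positions from 1 at the 5′ end and giving the miR-17-92 base first, miR-106a-5p differs from miR-17-5p by C1A alone, and miR-20b-5p differs from miR-20a-5p by U1C and U10C. miR-18b-5p differs from miR-18a-5p only by A20U, which lies beyond the trimmed read. The differences of miR-19b-2-5p from miR-19b-1-5p also begin beyond it, with C19U. For these 2 pairs the trimmed reads carry no base that separates the loci, and their counts depend on how the authors' expectation-maximization step divided the shared reads. Against miR-92a-3p, miR-92b-3p differs by U10C within the trimmed read, and miR-19b-3p differs from miR-19a-3p by U11C.

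On hg38, the 6 hairpins of the X cluster lie on the minus strand of chromosome X from 134169378 to 134170278, a span of 901 bases. They lie within the lncRNA that RefSeq names MIR106AHG, from 134169150 to 134174088, in an exon of the same gene in GENCODE release 44. The X-only arms lie from 134170244 to 134170266 (miR-106a-5p), from 134170084 to 134170106 (miR-18b-5p), from 134169850 to 134169872 (miR-20b-5p) and from 134169727 to 134169748 (miR-19b-2-5p). miR-19b-3p is encoded at 134169683 to 134169705 of chromosome X and at 91351245 to 91351267 of chromosome 13. miR-92a-3p is encoded at 134169544 to 134169565 of chromosome X and at 91351361 to 91351382 of chromosome 13. The chromosome 13 copies lie in exons of MIR17HG, and the deposited table gives both shared arms a single row at the chromosome 13 position. miR-92b-3p lies on chromosome 1 from 155195237 to 155195258, in an exon of the lncRNA THBS3-AS1.

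**Figure D1:**
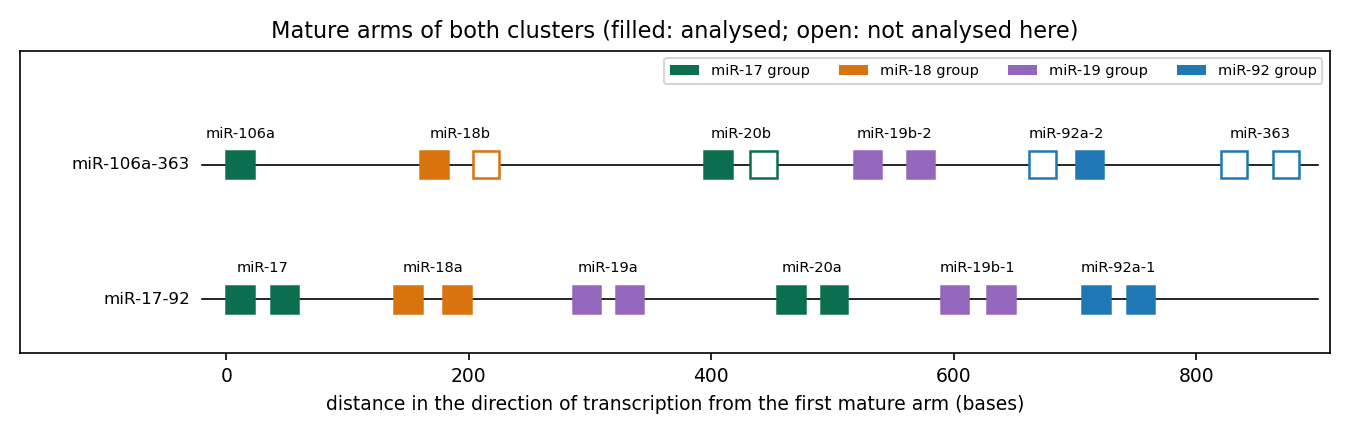
Mature arms of the miR-106a-363 cluster (above) and the miR-17-92 cluster (below), drawn to scale by their distance in bases from the first mature arm in the direction of transcription. Colours give the seed group of the hairpin, filled boxes are arms analysed here and open boxes are arms not analysed here; both clusters carry the groups in a like order, and the X cluster ends with miR-363.

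The libraries held between 4338558 and 7967606 counts. Values are CPM, the counts scaled to the library total, and 3 counts, the most that a count of 0 allows, correspond to 0.377 to 0.691 CPM. Intervals and limits from counts cover counting error only. let-7 and miR-98 together made up 19.2% to 19.7% of the ΔTUT4/7 counts and 5.57% to 6.36% of the wild type counts, so CPM of other miRNAs are lowered in ΔTUT4/7 cells relative to totals without let-7. Wild type replicate 3 stood apart from the other wild type libraries for several arms described here, and the fold changes it moved most are also given without it. The chi-square per degree of freedom between wild type replicates 1 and 2 was 99.2, against 293 and 284 between each of them and wild type replicate 3. TUT4 and TUT7 mRNAs are not part of a mature miRNA table, which leaves the knockout itself unchecked here. Of 13 miRNAs typical of blood, muscle, liver, neurons, fibroblasts or smooth muscle, 7 were analysed, and they summed to 40.7 to 44.1 CPM in the ΔTUT4/7 libraries and 70.9 to 122 CPM in the wild type libraries. Most of it was the blood cell miRNA miR-142-3p. It had 30.9 to 36.3 CPM in the ΔTUT4/7 libraries and 49.5 to 96.3 CPM in the wild type libraries. The fibroblast miRNA miR-143-3p had 0.853 to 2.76 CPM in the ΔTUT4/7 libraries and up to 13.1 CPM in the wild type libraries. All wild type libraries lay above all ΔTUT4/7 libraries for miR-143-3p, miR-142-3p, miR-142-5p and miR-122-5p, a separation shown by 29.5% of all tested miRNAs. The strains overlapped for miR-150-5p, miR-451a and miR-144-3p. The blood cell miRNAs miR-142-5p and miR-150-5p each reached 5.76 CPM. miR-451a, miR-144-3p and the liver miRNA miR-122-5p stayed at or under 1.13, 1.25 and 1.76 CPM. The part of these markers in the results was not tested.

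Of the 7 arms, 6 had a count above 7 in some library and entered the quasi-likelihood test of edgeR, in a fit across all 826 such miRNAs. An arm was called increased or decreased at a 2-fold change with a Benjamini-Hochberg adjusted p under 0.05. Of these, 5 had a count above 7 in both strains, and among them miR-92a-3p alone was called increased, where 16.5% of all tested miRNAs were. None of the 5 was called decreased, where 13.6% of all tested miRNAs were (30% in either direction), and none had a log2 fold change under 0 with edgeR, DESeq2 or limma-trend. Without the 2-fold limit, miR-92a-3p and miR-19b-3p were higher at the adjusted p, where 23.2% of all tested miRNAs were. The median log2 fold change of the 5 arms was 0.68, beside 0.013 for all tested miRNAs. All 3 ΔTUT4/7 libraries lay above all 3 wild type libraries for miR-92a-3p and miR-19b-3p, a separation shown by 28.8% of all tested miRNAs. None lay wholly below, as 29.5% of all tested miRNAs did. The 6th arm, miR-19b-2-5p, was past both limits as well, but it passed the filter only through its 9 counts in ΔTUT4/7 replicate 3, the strain in which it was high, and is left out of these counts.

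**Figure D2:**
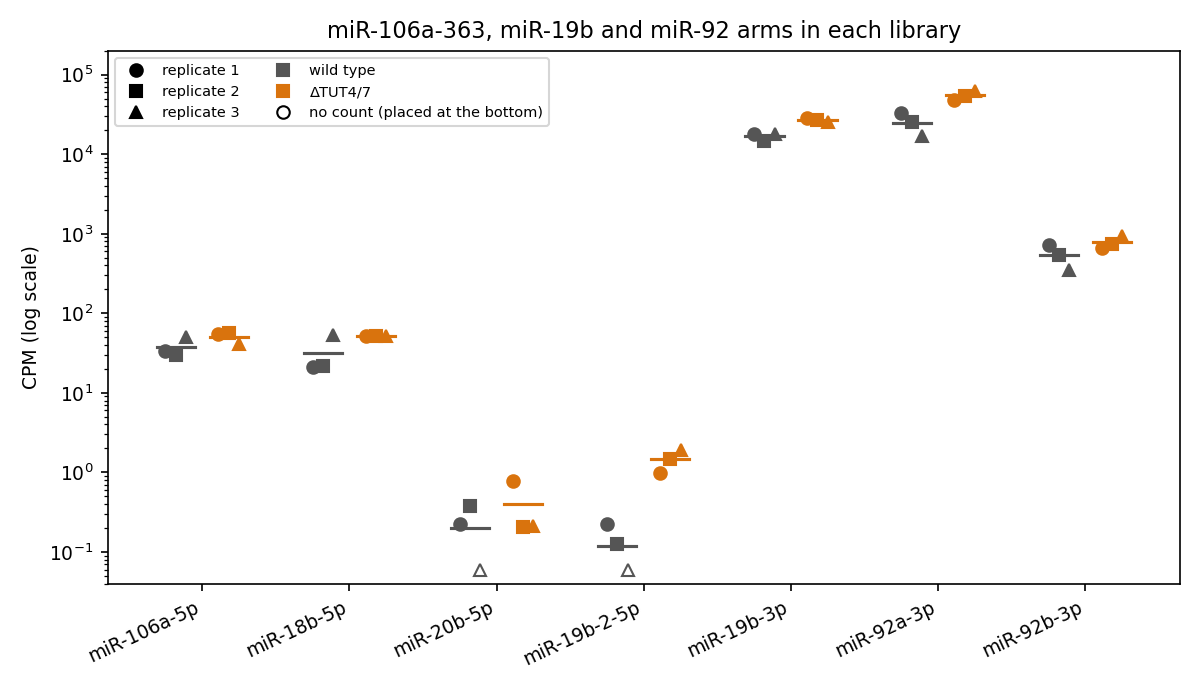
CPM of each arm (log scale) in the 3 wild type (grey) and 3 ΔTUT4/7 (orange) libraries; lines are means and open symbols at the bottom are libraries with no count. The strains are apart for miR-19b-2-5p, miR-19b-3p and miR-92a-3p, and the triangle of wild type replicate 3 lies with the ΔTUT4/7 libraries for miR-18b-5p and miR-106a-5p but below the other wild type libraries for miR-92a-3p and miR-92b-3p.

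The arms that both clusters encode were the most abundant of those described here, and both were higher in ΔTUT4/7 cells. miR-92a-3p, a member of the miR-92 group known for its antiangiogenic and prosurvival roles, had 48594, 54210 and 62223 CPM in ΔTUT4/7 replicates 1, 2 and 3. In wild type replicates 1, 2 and 3 it had 32550, 25427 and 16737 CPM. The lowest ΔTUT4/7 library was thus above the highest wild type library. Its mean level was 55009 ± 6849 CPM with the knockout and 24905 ± 7919 CPM without (SD over 3 libraries). The log2 fold change was 1.14 (standard error, SE, 0.20; adjusted p = 6.48e-04 with edgeR), or 2.21-fold. miR-92a-3p was the 3rd most abundant miRNA in ΔTUT4/7 and the 11th in wild type cells. The place of the change past the 2-fold limit rested on wild type replicate 3, without which the log2 fold change was 0.92 (adjusted p = 4.85e-04 with edgeR). It was 0.96 (adjusted p = 0.00177 with edgeR) with the GC trend of each library taken out, a setting added once the data had been seen.

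miR-19b-3p, the miR-19 arm held to account for much of the oncogenic activity of miR-17-92, rose by less than 2-fold. It had 28735, 27147 and 25099 CPM in the ΔTUT4/7 libraries and 17792, 14737 and 18084 CPM in the wild type libraries, in the order of the replicates. The strains did not overlap. The log2 fold change was 0.68 (SE 0.12, adjusted p = 6.48e-04 with edgeR), or 1.60-fold. Over the 16 other fits run it stayed between 0.59 and 0.90, with an adjusted p under 0.05 in each (0.00539 at most).

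Because the mature sequence of both shared arms is identical at the 2 loci, their counts do not tell which cluster they came from. The opposite arms of the same hairpins differ between the loci, though those of miR-19b do so only beyond the trimmed read. Of the chromosome 13 hairpins, miR-19b-1-5p had 290, 309 and 268 CPM in the ΔTUT4/7 libraries and 119, 75.8 and 127 CPM in the wild type libraries. Its log2 fold change was 1.43 (SE 0.20, adjusted p = 1.56e-04 with edgeR). miR-92a-1-5p had 108, 129 and 189 CPM against 59.4, 39.3 and 74.9 CPM, a log2 fold change of 1.30 (SE 0.26, adjusted p = 0.00187 with edgeR). Both opposite arms from chromosome 13 were thus increased, without overlap between the strains. Of the X hairpins, miR-92a-2-5p was not analysed here and miR-19b-2-5p was nearly undetected. miR-19b-2-5p had 5, 7 and 9 counts in ΔTUT4/7 replicates 1, 2 and 3 and 1, 1 and 0 counts in wild type replicates 1, 2 and 3. These are 0.985, 1.46 and 1.92 CPM against 0.227, 0.126 and 0 CPM, where a count of 0 allows up to 0.691 CPM in wild type replicate 3. The counts did not overlap between the strains. The ratio of pooled rates was 12.0, with a 95% exact counting interval of 2.94 to 105.98. That interval does not cover how the expectation-maximization step divided the reads shared with miR-19b-1-5p. The fitted log2 fold change was 3.36 (SE 0.82, adjusted p = 0.00575 with edgeR). Since a single ΔTUT4/7 library carried the arm past the filter, this p is not independent of the filter. With no filter on low counts the log2 fold change was 3.36 (SE 0.84, adjusted p = 0.00580 with edgeR), which rests on the same assigned counts. When its counts were summed with those of miR-19b-1-5p, with which it shares the trimmed read, the sum had a log2 fold change of 1.44 (adjusted p = 1.42e-04 with edgeR). Without ΔTUT4/7 replicate 3 no library held more than 7 counts of miR-19b-2-5p, and it was not tested.

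**Figure D3:**
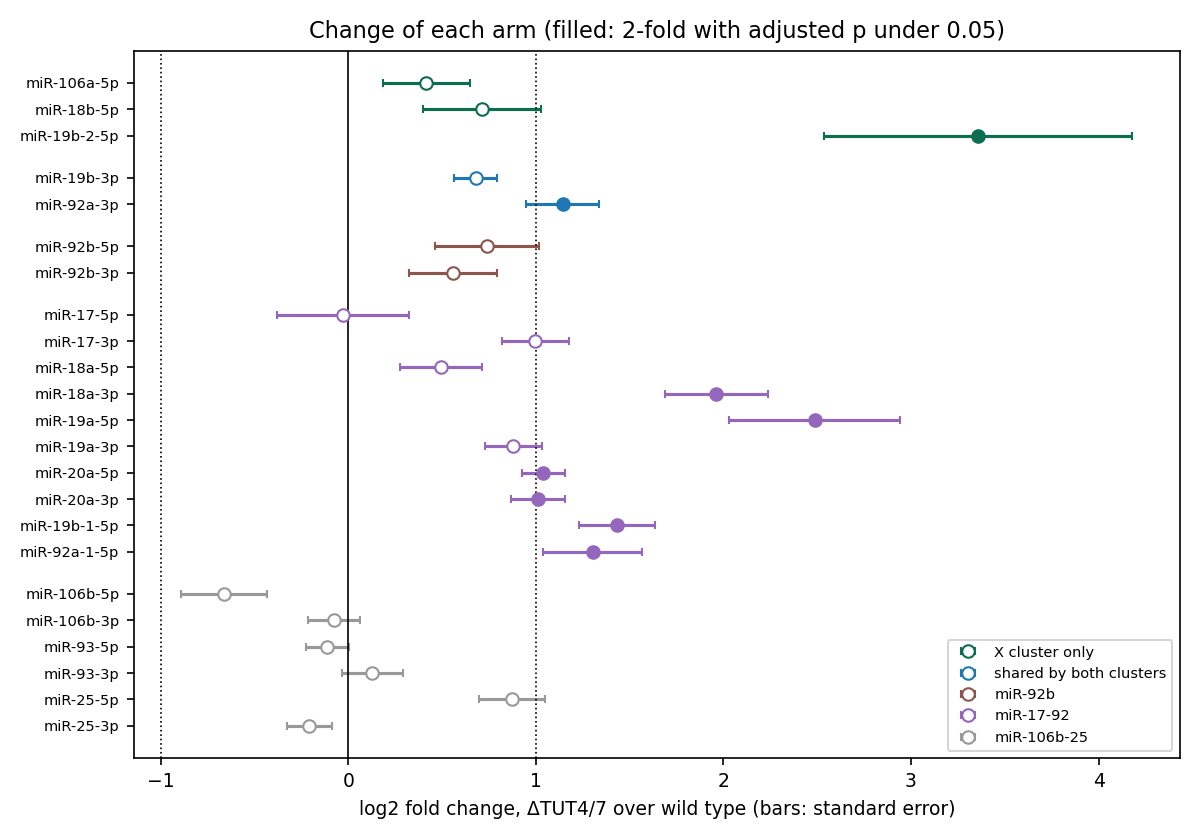
Log2 fold change of each arm, ΔTUT4/7 over wild type, with its SE from edgeR; filled points passed the 2-fold limit with an adjusted p under 0.05, and dotted lines mark 2-fold. The X cluster arms miR-106a-5p and miR-18b-5p lie at 0.42 and 0.71, both shared arms lie above 0, miR-17-92 arms reach 2.49 and the 6 miR-106b-25 arms lie between -0.66 and 0.87.

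The X-only arms miR-106a-5p and miR-18b-5p were scarce and were not called in either direction. miR-106a-5p, the X counterpart of miR-17-5p, had 55.0, 55.7 and 41.4 CPM in the ΔTUT4/7 libraries and 34.0, 29.6 and 50.9 CPM in the wild type libraries. ΔTUT4/7 replicate 3 lay below wild type replicate 3, so the strains overlapped. The log2 fold change was 0.42 (SE 0.23, adjusted p = 0.160 with edgeR). Without wild type replicate 3 it was 0.68 (adjusted p = 0.0154 with edgeR), still under the 2-fold limit. With totals that leave out let-7 it was 0.64 (adjusted p = 0.0404 with edgeR).

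miR-18b-5p, the X counterpart of miR-18a-5p, showed the clearest effect of a single library. Its ΔTUT4/7 values were close together, at 51.4, 52.4 and 52.5 CPM from 261, 252 and 246 counts. Their SD, 1.10% of the mean, is less than counting error alone would give, so it does not measure reproducibility. Its wild type values were 21.1, 21.6 and 53.5 CPM, with wild type replicate 3 above every ΔTUT4/7 library. The log2 fold change was 0.71 (SE 0.31, adjusted p = 0.0828 with edgeR). Without wild type replicate 3 it was 1.29 (SE 0.15, adjusted p = 1.62e-04 with edgeR), which passes the 2-fold limit. miR-18a-5p had 9210, 9213 and 8027 CPM in the ΔTUT4/7 libraries and 4890, 4680 and 9227 CPM in the wild type libraries. It shares the trimmed read, so its likeness to miR-18b-5p is not separate evidence. Without wild type replicate 3 the log2 fold change of miR-18a-5p was 0.88 (adjusted p = 8.17e-05 with edgeR), under the 2-fold limit. The sum of both arms, over all libraries, had a log2 fold change of 0.49 (adjusted p = 0.0875 with edgeR).

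miR-20b-5p, the X counterpart of miR-20a-5p, was at the limit of detection. It had 4, 1 and 1 counts in ΔTUT4/7 replicates 1, 2 and 3 and 1, 3 and 0 counts in wild type replicates 1, 2 and 3. The pooled rates, from 6 and 4 counts, had a ratio of 1.72 with a 95% exact counting interval of 0.408 to 8.29, so no difference was detectable at this depth. With no filter on low counts the fitted log2 fold change was 0.76 (SE 1.05, adjusted p = 0.615 with edgeR).

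miR-92b-3p comes from a separate locus on chromosome 1 and has the seed of miR-92a-3p. It had 665, 754 and 950 CPM in the ΔTUT4/7 libraries and 721, 538 and 351 CPM in the wild type libraries. ΔTUT4/7 replicate 1 lay below wild type replicate 1, so the strains overlapped. The log2 fold change was 0.56 (SE 0.23, adjusted p = 0.0705 with edgeR). It was 0.33 (adjusted p = 0.150 with edgeR) without wild type replicate 3 and 0.83 (adjusted p = 0.0112 with edgeR) without wild type replicate 1. Its opposite arm miR-92b-5p had a log2 fold change of 0.74 (SE 0.28, adjusted p = 0.0472 with edgeR), with overlapping strains. The adjusted p of miR-92b-5p was 0.137 without wild type replicate 3.

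Wild type replicate 3 differed from the other wild type libraries in opposite directions among these arms. Relative to the mean of wild type replicates 1 and 2, wild type replicate 3 held 1.60-fold more miR-106a-5p, 2.51-fold more miR-18b-5p and 1.11-fold more miR-19b-3p. It held 1.73-fold less miR-92a-3p and 1.79-fold less miR-92b-3p. The GC content of the mature sequence was 43.5% for both miR-106a-5p and miR-18b-5p and 39.1% for miR-19b-3p. It was 54.5% for miR-92a-3p and 63.6% for miR-92b-3p. Related arms did not all follow this order. Wild type replicate 3 held 1.52-fold more miR-92a-1-5p (52.2% GC) and 1.08-fold less miR-20a-5p (39.1% GC). It also held 1.97-fold less miR-18a-3p (56.5% GC) and 2.02-fold more miR-32-5p (31.8% GC), which did follow it. Weighted by counts, the GC content of the miRNAs in wild type replicate 3 was 44.4%, beside 45.0% in each of the other wild type libraries and 43.7% to 44.2% in ΔTUT4/7 libraries. The part of GC content in the spread of these libraries was not tested. With the GC trend removed, the log2 fold changes of miR-106a-5p and miR-18b-5p were 0.56 (adjusted p = 0.0427 with edgeR) and 0.87 (adjusted p = 0.0229 with edgeR), and that of miR-92b-3p was 0.32 (adjusted p = 0.225 with edgeR).

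The ratio of 2 arms within a library does not depend on how libraries are scaled, and was used to compare arms with their counterparts. With 3 libraries a strain, a 2-sided exact permutation test cannot give a p under 0.1. miR-106a-5p had 1.17%, 1.23% and 1.13% of the counts of miR-17-5p in the ΔTUT4/7 libraries and 1.42%, 1.08% and 0.639% in the wild type libraries. The strains overlapped (mean difference of the log2 ratio 0.25, SE 0.34, exact permutation p = 0.7), and the sign of the difference turned to -0.069 without wild type replicate 3. Relative to the mean of the other wild type libraries, wild type replicate 3 held 3.10-fold more miR-17-5p and 1.60-fold more miR-106a-5p. miR-18b-5p had 0.559%, 0.569% and 0.654% of the counts of miR-18a-5p in the ΔTUT4/7 libraries and 0.431%, 0.461% and 0.580% in the wild type libraries. The difference of the log2 ratio was 0.28 (SE 0.15, exact permutation p = 0.3). In the assigned counts miR-18b-5p thus stayed near a fixed small share of miR-18a-5p, although wild type replicate 3 held more of both. It held 2.51-fold more miR-18b-5p and 1.93-fold more miR-18a-5p than the mean of the other wild type libraries. The trimmed reads carry no base that separates this pair. Its ratio and p therefore reflect how the expectation-maximization step divided shared reads, and cannot compare the loci.

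The clearest ratio was that of the paralogs miR-92b-3p and miR-92a-3p. miR-92b-3p had 1.37%, 1.39% and 1.53% of the counts of miR-92a-3p in the ΔTUT4/7 libraries and 2.21%, 2.12% and 2.10% in the wild type libraries. The strains did not overlap, and wild type replicate 3, which stood apart in the level of both arms, did not stand apart in their ratio. The log2 ratio was lower by 0.59 in ΔTUT4/7 cells (difference -0.59, SE 0.05, exact permutation p = 0.1, the smallest this design allows). Over the 5 ratios tested its adjusted p was 0.375. miR-19b-3p had 2.20, 2.00 and 1.90 times the counts of miR-19a-3p in the ΔTUT4/7 libraries and 2.12, 2.71 and 2.31 times in the wild type libraries, with overlap (difference -0.22, SE 0.12, exact permutation p = 0.2). The ratio of miR-92a-3p to miR-19b-3p was 1.69, 2.00 and 2.48 against 1.83, 1.73 and 0.926, also with overlap (difference 0.51, SE 0.35, exact permutation p = 0.3). Without wild type replicate 3 that difference was 0.19. The adjusted p of these other ratios was 0.375 or more.

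**Figure D4:**
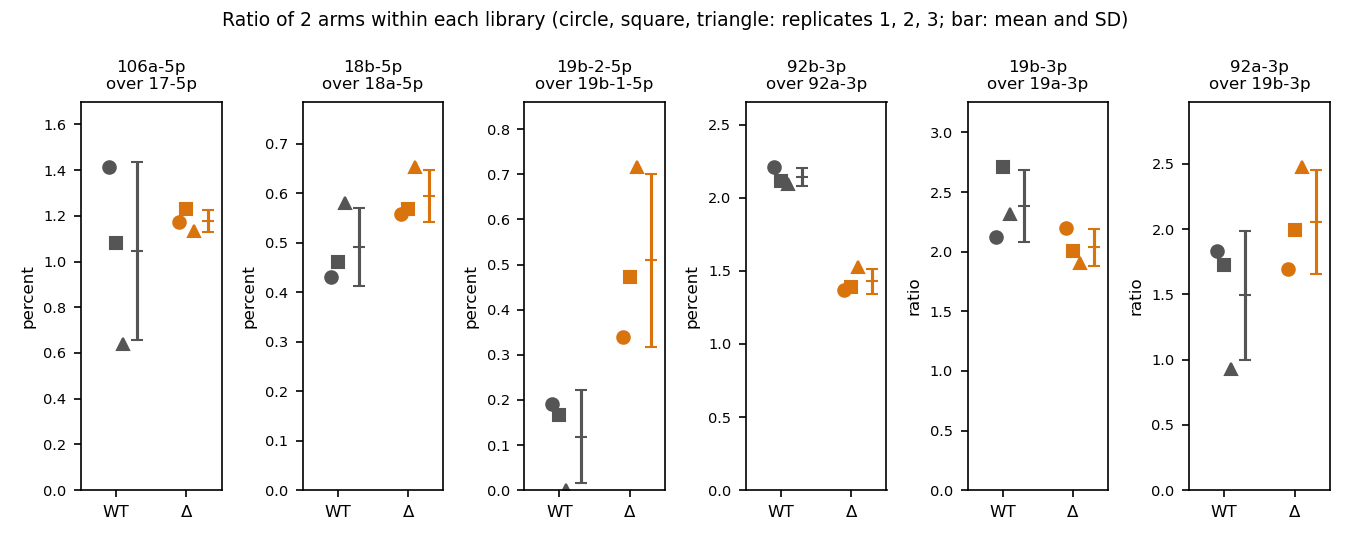
Ratio of the counts of 2 arms within each library, as a percent or as a plain ratio where it exceeds 1, for wild type (WT, grey) and ΔTUT4/7 (Δ, orange) cells, with each mean and SD. The strains are apart for miR-92b-3p over miR-92a-3p (2.14% ± 0.0622 in wild type and 1.43% ± 0.0856 in ΔTUT4/7). They are also apart for miR-19b-2-5p over miR-19b-1-5p, which rests on at most 9 counts a library. Trimmed reads of that pair, and of miR-18b-5p over miR-18a-5p, carry no base that separates the loci.

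The arms that only the X cluster encodes had few counts beside their miR-17-92 counterparts. Summed, miR-106a-5p, miR-18b-5p, miR-20b-5p and miR-19b-2-5p had 96.0 to 110 CPM in the ΔTUT4/7 libraries and 51.7 to 104 CPM in the wild type libraries. Their miR-17-92 counterparts (miR-17-5p, miR-18a-5p, miR-20a-5p and miR-19b-1-5p) had 74922 to 81050 CPM and 36042 to 47520 CPM. The X arms thus had 0.128% to 0.136% of the counts of their counterparts in ΔTUT4/7 and 0.125% to 0.220% in wild type cells, with the highest value in wild type replicate 3. The shared arms miR-19b-3p and miR-92a-3p are in neither sum, so these shares are not the output of each cluster. The counts of miR-18b-5p and miR-19b-2-5p also depend on how the expectation-maximization step divided shared reads.

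Grouped by seed over all miRNAs of the table, the arms described here carried very different shares of their groups. The AUUGCAC group held miR-92a-3p, miR-25-3p of the miR-106b-25 cluster, miR-32-5p and miR-92b-3p, and summed to 82071 ± 7210 CPM (SD, n = 3) with the knockout and 56338 ± 9812 CPM (SD, n = 3) without. miR-92a-3p was 64.4%, 67.0% and 69.3% of it in the ΔTUT4/7 libraries and 51.9%, 41.5% and 37.2% in the wild type libraries. miR-25-3p was 28.8% to 34.0% and 45.1% to 57.6%. miR-92a-3p was thus the largest part of this group in every ΔTUT4/7 library, while miR-25-3p was the largest in wild type replicates 2 and 3. The level of miR-25-3p itself had a log2 fold change of -0.21 (SE 0.12, adjusted p = 0.164 with edgeR), and that of miR-32-5p -0.99 (SE 0.26, adjusted p = 0.00857 with edgeR). Without wild type replicate 3 these were -0.29 (adjusted p = 0.0260 with edgeR) and -0.57 (adjusted p = 0.0171 with edgeR). miR-92b-3p stayed at 0.881% to 1.06% of the group in ΔTUT4/7 and 0.779% to 1.15% in wild type cells.

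In the AAAGUGC group, which summed to 109995 ± 1277 CPM (SD, n = 3) with the knockout and 79923 ± 6276 CPM (SD, n = 3) without, miR-106a-5p was 0.0381% to 0.0502% and 0.0388% to 0.0667%. The group was made up mainly of miR-20a-5p and miR-93-5p. The AAGGUGC group held miR-18a-5p and miR-18b-5p, with miR-18b-5p at 0.555% to 0.649% and 0.429% to 0.576%. In the GUGCAAA group of miR-19a-3p and miR-19b-3p, miR-19b-3p was 65.6% to 68.8% in ΔTUT4/7 and 67.9% to 73.1% in wild type cells, and the group rose from 24083 ± 3394 CPM in wild type to 40256 ± 1790 CPM in ΔTUT4/7 cells (SD over 3 libraries), without overlap.

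**Figure D5:**
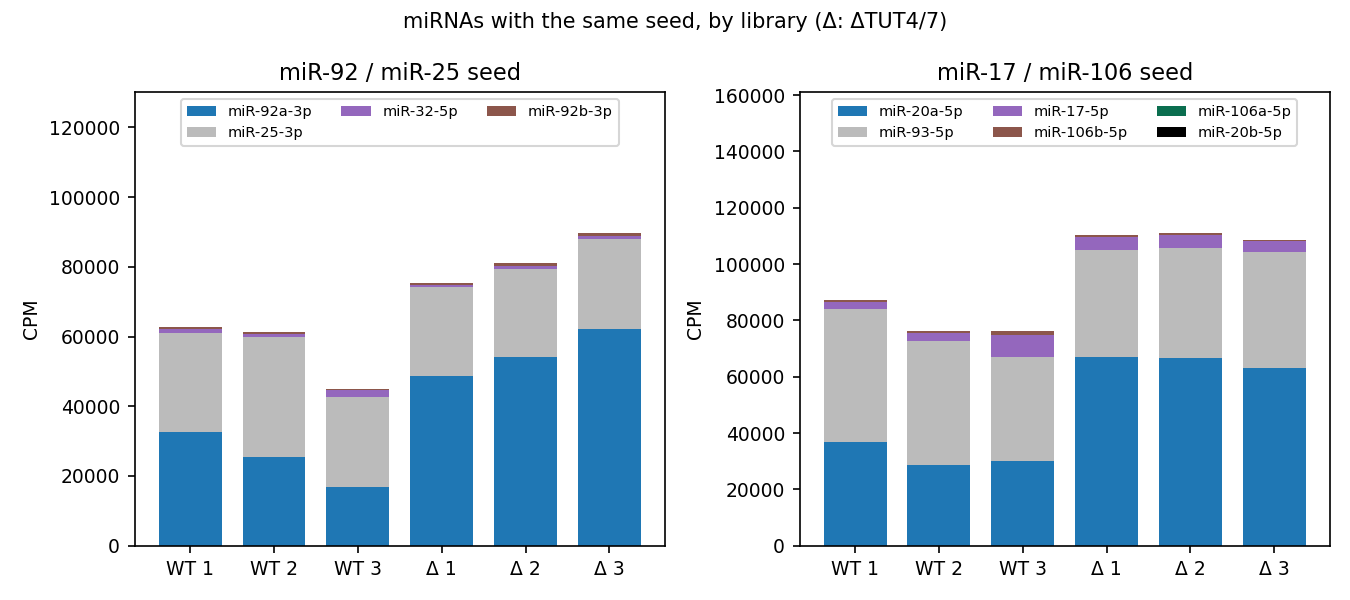
CPM of the miRNAs that share the seed of miR-92a-3p (left) and of miR-106a-5p (right), stacked for each library (WT, wild type; Δ, ΔTUT4/7). miR-92a-3p reaches 48594 to 62223 CPM in ΔTUT4/7 against 16737 to 32550 CPM in wild type libraries, while the layers of miR-92b-3p, miR-106a-5p and miR-20b-5p are thin or too thin to see.

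Beside these arms, the other arms of the miR-17-92 cluster and those of miR-106b-25 were taken as related lists. Of 10 tested miR-17-92 arms, 6 were called increased, where 16.5% of all tested miRNAs were, and none decreased, with a median log2 fold change of 1.03. Several lay near the 2-fold limit, and the number called was 4 without wild type replicate 2 and at most 8, without wild type replicate 1 or with let-7 and miR-98 excluded from the totals. Of the 6 miR-106b-25 arms, none was called, where 30% of all tested miRNAs were in either direction, and their median was -0.09. At the adjusted p alone miR-25-5p was higher (log2 fold change 0.87) and miR-106b-5p lower (-0.66). miR-25-5p passed the 2-fold limit with let-7 and miR-98 excluded from the totals (1.10) and without ΔTUT4/7 replicate 1 (1.00). miR-106b-5p was at -0.30 (adjusted p = 0.0764 with edgeR) without wild type replicate 3. The 5p arms miR-17-5p and miR-18a-5p, the closest in sequence to miR-106a-5p and miR-18b-5p, did not pass the test, with log2 fold changes of -0.03 and 0.49. Without wild type replicate 3 the fold changes of miR-17-5p and miR-18a-5p were 0.74 (adjusted p = 0.00138 with edgeR) and 0.88 (adjusted p = 8.17e-05 with edgeR).

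CPM are not divided by length, and all 7 arms are 22 or 23 nt long. In ΔTUT4/7 cells the order of mean CPM was miR-92a-3p, miR-19b-3p, miR-92b-3p, miR-18b-5p, miR-106a-5p, miR-19b-2-5p and miR-20b-5p. The ranges of neighbours did not overlap except for miR-18b-5p and miR-106a-5p, whose means of 52.1 and 50.7 CPM differed by less than their spread. The gap between miR-19b-2-5p and miR-20b-5p rested on 5 against 4 counts in ΔTUT4/7 replicate 1, so their order is not established. In wild type cells the ranges overlapped for miR-92a-3p with miR-19b-3p, for miR-106a-5p with miR-18b-5p, and for miR-20b-5p with miR-19b-2-5p. miR-92a-3p had 2.04 times the mean of miR-19b-3p in ΔTUT4/7 cells and 1.48 times in wild type cells.

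As a description of likeness, log2(CPM + 1) of each arm above 10 CPM was compared with that of the other miRNAs above 10 CPM (391 in all) over the 6 libraries, in which the difference between the strains and the place of wild type replicate 3 both contribute. miR-106a-5p was most like miR-18a-5p (Pearson correlation 0.96) and miR-12136 (0.95). miR-18b-5p was most like miR-551a (0.99) and miR-18a-5p (0.98), with which it shares the trimmed read. miR-19b-3p was most like miR-19b-1-5p (0.99), the opposite arm of its chromosome 13 hairpin, and miR-29c-5p (0.99). miR-92a-3p was most like miR-194-3p and miR-1180-3p (0.99 each), and miR-92b-3p was most like miR-671-3p (1.00) and miR-107 (0.99).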

How the data were processed

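In Partek Flow 10.0.22 the authors cut reads to 18 nt, mapped these to hg38 (Bowtie 1.0.0) and assigned them to mature miRNAs of miRBase. The deposited values are estimated counts, which the authors obtained with Partek's expectation-maximization step, and all are whole numbers; the 3 wild type values of miR-16-5p are rounded to 3 digits, which moves a library total by at most 0.115%. Any collapsing of molecular identifiers is not given in the sources used. The authors' own comparison (p-values, ratios, fold changes and strain means) was not used.

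Libraries were assigned by their labels. The 826 miRNAs whose highest count exceeded 7 entered edgeR 4.0.16 (R 4.3.3) with total counts as library sizes and Benjamini-Hochberg adjustment over all of them. Alternatives were TMM, RLE, DESeq2 1.42.0, totals excluding let-7 with miR-98, limma-trend (limma 3.58.1) on log2(CPM + 1), other filters and call rules, a replicate block, sums over shared 18-nt starts, each library left out, and, added after seeing the data, removal of a GC trend (lowess, span 0.5). The fitting was tested on 2 simulated sets of counts for this comparison, each with 200 miRNAs changed 4-fold. With changed miRNAs of 1 to 2000 CPM, edgeR on total counts recovered 195 of 200, with 5 false calls among 573 unchanged miRNAs. This range was set after a simulation with changed miRNAs of any level above 1 CPM had failed: there edgeR on total counts recovered 184 of 200 but made 55 false calls among 574 unchanged miRNAs, whose median log2 fold change was shifted to 0.60. In that simulation TMM and RLE each recovered 194 with 0 false calls, so calls on total counts depend on how far abundant miRNAs move the totals. Ratios and plots used Python 3.11.15 with scipy 1.17.1 and matplotlib 3.10.9. Sequences matched RefSeq by name for 897 miRNAs, and the other 103 were read from hg38 at the table's positions for seeds, GC content and shared starts only. The samples are labelled biological replicates. The named arms and lists were chosen with earlier results of these data known: all members, the arms of related hairpins and clusters, and, for each member above 10 CPM, its 2 most alike miRNAs.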

Additional observations from a re-analysis of the deposited data

How the results depend on the processing

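Of the 5 arms with a count above 7 in both strains, miR-92a-3p alone was called increased, where 16.5% of all tested miRNAs were. The numbers of arms below also count miR-19b-2-5p, which passed the filter only through ΔTUT4/7 replicate 3, of the strain where it was high. So counted, 2 arms were called increased. The number was 1 with filterByExpr, which removed miR-19b-2-5p. With the GC trend removed it was 1, miR-19b-2-5p, with miR-92a-3p at 0.96. With each library left out it ranged from 1 to 2, the lower value without ΔTUT4/7 replicate 3. Without wild type replicate 3 the number was also 2, but with miR-18b-5p (1.29) in place of miR-92a-3p (0.92). Total counts gave false calls in a simulation in which abundant miRNAs changed, and with TMM and RLE, which did not, the same number of arms, 2, was called; miR-92a-3p was at 1.18 and 1.10, miR-19b-3p at 0.72 and 0.64, and the median of all tested miRNAs at 0.04 and -0.04. With the adjusted p alone the number of arms was 3, where 23.2% of all tested miRNAs were higher, and no setting gave a decrease. Of all tested miRNAs, 136 were increased and 112 decreased, and 183 and 81 once let-7 with miR-98 was excluded from the totals, a share of 69.3% increased in place of 54.8%, with the median log2 fold change at 0.23. Every fitted log2 fold change of the 6 tested arms stayed above 0 in the alternatives run. Of the arms not called, the adjusted p was under 0.05 in 3 of 16 alternatives for miR-106a-5p, 6 of 16 for miR-18b-5p and 4 of 16 for miR-92b-3p, among them the replicate block for miR-18b-5p (0.0142) and miR-92b-3p (0.0416). The log2 fold change of miR-19b-2-5p was smallest, at 1.122, with limma-trend on log2(CPM + 1), where the added 1 exceeds its wild type CPM. The log2 ratio of miR-106a-5p to miR-17-5p ranged from -0.069 to 0.50 with each library left out (0.25 with all), reversing without wild type replicate 3. Against the mean of the other wild type libraries, that library held 3.10-fold more miR-17-5p and 1.60-fold more miR-106a-5p. The cause was not tested. The 4 other log2 ratios kept their sign in all settings run, which, since 3 libraries a strain cannot reach a p under 0.1, says nothing of significance. Pairs that share the trimmed read have no ratio once summed. Same-numbered libraries did not deviate together (correlations of -0.17, -0.16 and -0.25 over 391 miRNAs). Correlations of libraries with other numbers were -0.10 to 0.19. Deviations were taken from the mean of each strain's 3 libraries, which ties these values to each other. They therefore cannot show whether libraries were handled in pairs. With the replicate block 2 arms were called increased, and all tested miRNAs gave 131 increased and 102 decreased. miR-20b-5p is limited by depth, and miR-19b-2-5p by its few counts and by the trimmed read it shares with miR-19b-1-5p.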
